A study of Caenorhabditis elegans with 6 samples.

Results

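The miRNAs mir-75 (listed as cel-mir-75) and mir-79 (cel-mir-79) were followed in small RNA libraries from dissected gonads of adult Caenorhabditis elegans. Both were taken by name as the pair that shares a seed, and they made up 2 of the 253 miRNA genes counted in the series. The series held 3 libraries from hermaphrodite gonads and 3 from male gonads, all of the wild-type strain N2, the standard laboratory strain, and the labels give the germline as the cell type. No mutation or agent is named for either sex. Adult hermaphrodites of this species produce oocytes, having stored sperm made as larvae, and males produce only sperm. The stated purpose of the series was to find miRNAs that are present in gonads and those that are more abundant in the male gonad.

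A miRNA is a short RNA that guides an Argonaute protein to messenger RNAs, mostly through pairing of its seed, the bases near its 5′ end, and thereby lowers their translation or stability. Members of a seed pair can in principle bind the same target sites, while each is made from its own gene and can be expressed in other cells. In C. elegans, mir-79 is known from the epidermis, where it acts on sqv-5 and sqv-7, genes of proteoglycan synthesis, and thereby affects neuronal migration. It is related to the miR-9 miRNAs of flies and vertebrates.

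The genes lie apart. In the WBcel235 annotation mir-75 is on the plus strand of chromosome X, overlaps no other gene and has mir-73 and mir-74 on the same strand within 10 kb. The gene of mir-79 is on the plus strand of chromosome I, has no other miRNA gene within 10 kb on its strand and lies antisense to the non-coding RNA gene C12C8.6. Both arms of each hairpin are annotated as mature miRNAs, of 22 and 22 bases for mir-75 and of 23 and 22 bases for mir-79. The deposited counts are per gene, so the arms could not be told apart. Whether the counting used strand is not given in the sources used here, and without it reads of mir-79 and C12C8.6 could not be separated.

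Hermaphrodite libraries held 2268159 to 2621478 miRNA counts and male libraries 245399 to 597166, so that the mean total was 5.64-fold larger in hermaphrodites and depth cannot be told apart from sex. The limit of 3 counts that a count of 0 allows corresponded to 1.14 to 1.32 CPM (each library's counts put on one common total) in hermaphrodite and 5.02 to 12.2 CPM in male libraries. The labels do not say that the libraries of a sex came from separate cultures or dissections, so p-values measure the spread between these samples, which may be technical. The mir-35 family, which is abundant in oocytes and embryos, summed to 202473 to 343568 scaled CPM in hermaphrodite and 390 to 449 scaled CPM in male libraries, where scaled CPM are CPM on the library size after TMM (trimmed mean of M values) scaling. The test covered 7 of its 8 members and called each of the 7 lower in males. In these bulk samples fewer cells that make a miRNA and less of it per cell cannot be told apart.

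Both members were minor miRNAs of the gonad. For mir-75 the hermaphrodite libraries held 72, 59 and 72 raw counts for replicates 1 to 3, and the male libraries held 120, 60 and 36. For mir-79 the raw counts were 84, 49 and 98 in hermaphrodite and 83, 68 and 5 in male libraries. Ordered by count within each library, mir-75 stood at rank 73 to 75 in hermaphrodite and 66 to 71 in male libraries, among 253 miRNAs of which 134 to 154 had any count. The rank of mir-79 was 69 to 79 in hermaphrodite libraries, 70 in male replicate 1, 68 in male replicate 2 and 96 in male replicate 3. Both passed the filter on low counts, which kept 124 miRNAs.

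In scaled CPM, mir-75 stood at 39.0, 45.0 and 35.5 in hermaphrodite replicates 1 to 3 and at 141, 83.9 and 120 in male replicates 1 to 3. Every male library lay above every hermaphrodite library, and the lowest male value belonged to replicate 2. The same separation without overlap, with male values higher, was seen for 38.7% of the tested miRNAs. The hermaphrodite mean was 39.8 ± 4.77 scaled CPM (SD, n = 3) and the male mean 115 ± 28.8 scaled CPM (SD, n = 3). Male over hermaphrodite, the log2 fold change was 1.53 (SE 0.56), and edgeR's quasi-likelihood F-test gave a p of 0.013 after Benjamini-Hochberg adjustment over the 124 miRNAs. The test pools the spread over miRNAs and had 342 degrees of freedom for mir-75, far more than the libraries alone give. By this test mir-75 was higher in male gonads. Among all tested miRNAs 55.6% were called, 30.6% as higher in male and 25.0% as higher in hermaphrodite gonads, so a call of this direction was common. Of the tested miRNAs, 75.0% had a lower log2 fold change than mir-75.

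In scaled CPM, mir-79 stood at 45.5, 37.3 and 48.4 in hermaphrodite replicates 1 to 3 and at 97.4, 95.1 and 16.6 in male replicates 1 to 3. Male replicates 1 and 2 lay above all hermaphrodite libraries and male replicate 3 lay below all of them, so the groups overlapped. The male replicate 3 value rested on 5 counts, and its exact 95% Poisson interval of 5.40 to 38.8 scaled CPM lay below the intervals of the other male libraries, which began at 77.6 and 73.9 scaled CPM. The male replicate 3 interval overlapped those of hermaphrodite replicates 1 and 2, which began at 36.3 and 27.6 scaled CPM. The interval of hermaphrodite replicate 3 began just above it, at 39.3 scaled CPM. These intervals cover counting error only. The hermaphrodite mean was 43.7 ± 5.71 scaled CPM (SD, n = 3) and the male mean 69.7 ± 46.0 scaled CPM (SD, n = 3). The log2 fold change was 0.72 (SE 0.55), with a 95% interval of -0.36 to 1.79 on 321 pooled degrees of freedom. Its adjusted p of 0.257 in the edgeR F-test did not pass the threshold of 0.05. Without male replicate 3 the log2 fold change was 0.78 (SE 0.33) with an adjusted p of 0.0528 in the same test, and without male replicate 2 it was 0.0095 with an adjusted p of 0.988.

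**Figure D1:**
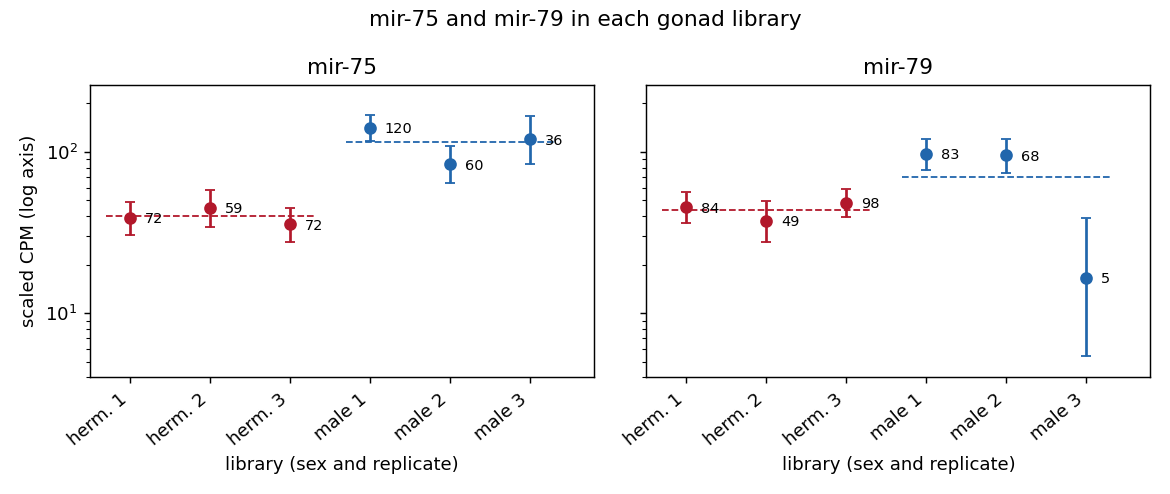
Scaled CPM (log axis) of mir-75 (left) and mir-79 (right) in the 3 hermaphrodite (red) and 3 male (blue) gonad libraries; bars are exact 95% Poisson intervals of the counts, numbers beside the points are raw counts and dashed lines are group means. Male values of mir-75 all lie above the hermaphrodite values, while mir-79 in male replicate 3, with 5 counts, lies below every other library.

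The call of mir-75 did not hold with some single libraries left out or under every scaling. Leaving out hermaphrodite replicate 1, 2 or 3 moved the adjusted p (edgeR F-test) to 0.079, 0.129 and 0.0728, with log2 fold changes of 1.28, 1.11 and 1.18. Leaving out male replicate 1 gave an adjusted p of 0.050008. There the log2 fold change was 1.24 (SE 0.44), with an unadjusted p of 0.024 in that test. With all libraries it was 1.53 (SE 0.56), with an unadjusted p of 0.0064. Leaving out a library also changes how far the test pools the spread over miRNAs. A lost call therefore does not single out the mir-75 value of the library left out. TMM scaling computed without the mir-35 family ended the call as well. It gave a log2 fold change of 1.03 (SE 0.45), with an unadjusted p of 0.0389 and an adjusted p of 0.0708 in that test. Library totals raised the log2 fold change to 2.52. The scaling, too, changes how far the test pools the spread. The 342 degrees of freedom given above are those of the TMM fit with all libraries.

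Much of the movement between scalings was shared with all miRNAs. The median log2 fold change over all tested miRNAs was 0.15 with TMM, 1.18 with library totals and -0.35 with TMM computed without the mir-35 family. Set against that median, mir-75 was higher by 1.34 to 1.39 on the log2 scale under all 5 scalings. For mir-79 the excess over the median was 0.48 to 0.57 on the log2 scale. These narrow ranges are largely built in, because a scaling moves every miRNA and the median together. With a library left out, the excess ranged from 1.09 to 1.50 for mir-75 and from 0.089 to 0.79 for mir-79.

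**Figure D2:**
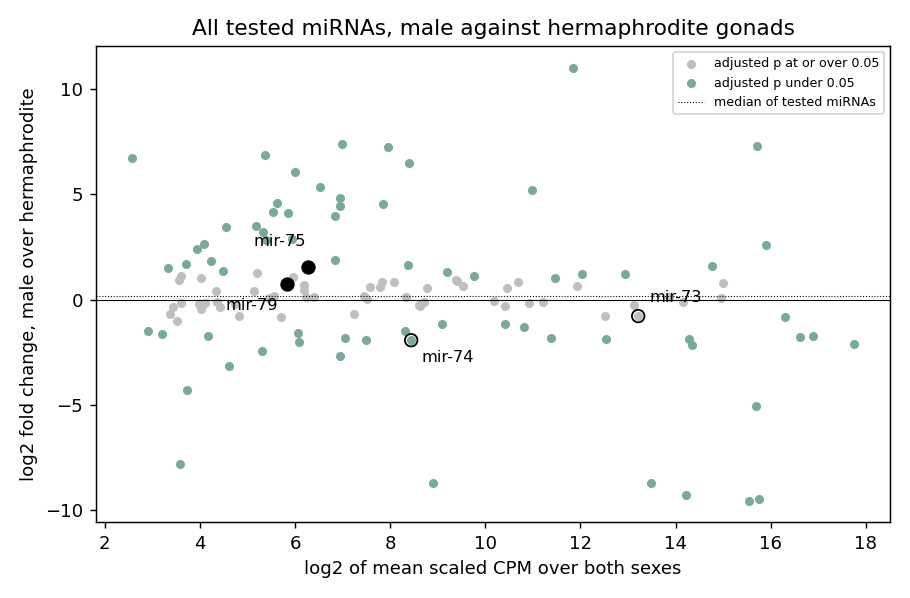
Log2 fold change (male over hermaphrodite, edgeR) of the 124 tested miRNAs against the log2 of their mean scaled CPM over both sexes; green points have an adjusted p under 0.05, filled black points are mir-75 at 1.53 and mir-79 at 0.72, ringed points are mir-73 and mir-74, and the dotted line is the median of 0.15. By mean log2 CPM, mir-75 was 68th and mir-79 75th of the 124, and both lie within the range of the other changes.

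As shares of all miRNA counts, which use no scaling between libraries, mir-75 took 27.5, 25.2 and 31.7 CPM in hermaphrodite and 201, 136 and 147 CPM in male replicates 1 to 3. The means, 28.1 ± 3.33 CPM (SD, n = 3) and 161 ± 34.7 CPM (SD, n = 3), differed 5.73-fold without overlap. On this scale 53.2% of the tested miRNAs were higher in all male libraries without overlap, and the median log2 fold change over all of them was 1.18, as given above for library totals. The two-sided exact permutation p was 0.1, the smallest that 3 libraries against 3 can give. The share of mir-79 was 32.0, 20.9 and 43.2 CPM in hermaphrodite and 139, 154 and 20.4 CPM in male replicates 1 to 3, the last with a 95% Wilson interval of 8.70 to 47.7 CPM. Its means of 32.1 ± 11.1 CPM (SD, n = 3) and 105 ± 73.3 CPM (SD, n = 3) gave a two-sided exact permutation p of 0.4. Over 5 such tests made here, the Benjamini-Hochberg adjusted exact permutation values were 0.167 for mir-75 and 0.4 for mir-79.

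In the authors' deposited normalized counts, mir-75 stood at 41.4, 43.9 and 45.4 in hermaphrodite and 107, 74.5 and 113 in male libraries. For mir-79 these values were 48.3, 36.5 and 61.8 in hermaphrodite and 73.9, 84.4 and 15.8 in male libraries. On this scale too the groups were apart for mir-75 and overlapped for mir-79, again through male replicate 3. These are the same counts divided by other size factors, so they are not separate support. The share of all tested miRNAs whose groups were apart on this scale was not computed. With male values higher, it was 38.7% in scaled CPM and 53.2% as shares of miRNA counts, so such separation was common.

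The members had similar counts in most libraries. Whether counts of different miRNAs measure their abundance alike was not tested. The ratio of mir-75 to mir-79 counts was 0.857, 1.20 and 0.735 in hermaphrodite replicates 1 to 3 and 1.45, 0.882 and 7.20 in male replicates 1 to 3. Expressed as a share of the counts of the pair, mir-75 held 42.4% to 54.6% in hermaphrodite libraries, 59.1% (95% Wilson interval 52.2% to 65.6%) in male replicate 1 and 46.9% (38.4% to 55.5%) in male replicate 2. In male replicate 3 it held 87.8% (95% Wilson interval 74.5% to 94.7%), the highest share in any of the 6 libraries. The mean log2 ratio was 1.16 higher in male than in hermaphrodite libraries, with a two-sided exact permutation p of 0.2 (adjusted 0.25), and 0.31 higher without male replicate 3. A difference between the members in their response to sex was therefore not established, which does not show that they respond alike. Summed, the pair held 84.5, 82.3 and 83.9 scaled CPM in hermaphrodite replicates 1 to 3 and 238, 179 and 136 scaled CPM in male replicates 1 to 3.

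Of the neighbours of mir-75 on chromosome X, mir-74 was lower in male gonads, and the call of mir-73 depended on the processing. Both belong to the mir-72 family and have another seed. Raw counts of mir-74 were 1045, 879 and 841 in hermaphrodite and 126, 79 and 53 in male replicates 1 to 3. The hermaphrodite mean of mir-74 was 550 ± 128 scaled CPM (SD, n = 3) and its male mean 145 ± 33.1 scaled CPM (SD, n = 3). Its log2 fold change of -1.93 (SE 0.43) had an adjusted p of 3.96e-05 in the edgeR F-test, and it was called lower in male gonads under all 18 alternatives. For mir-73 the counts were 22037, 19411 and 18997 in hermaphrodite and 6187, 3276 and 2739 in male replicates 1 to 3. Its log2 fold change of -0.78 (SE 0.38) did not pass the threshold, with an adjusted p of 0.0687 in the same test. Over the 18 alternatives mir-73 was lower in male gonads in 17 and called so in 10, with an adjusted p of 0.0131 with RLE scaling and 1.64e-05 without male replicate 3 in the same test, and its direction was reversed with library totals, at 0.21.

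Ratios within a library need no scaling. There were 14.5, 14.9 and 11.7 counts of mir-74 for each count of mir-75 in hermaphrodite replicates 1 to 3, and 1.05, 1.32 and 1.47 in male replicates 1 to 3. The mean log2 ratio fell by 3.42 in male gonads, which is a ratio 10.7-fold lower. For mir-73 the ratio to mir-75 was 306, 329 and 264 in hermaphrodite and 51.6, 54.6 and 76.1 in male replicates 1 to 3, and its mean log2 ratio fell by 2.32 in male gonads, which is a ratio 4.99-fold lower. Neither ratio overlapped between the sexes. For each, the two-sided exact permutation p was 0.1, the smallest possible with 3 libraries per sex, and the adjusted value was 0.167. These ratios were chosen for testing after the values had been seen, and the counts behind those of mir-74 and mir-75 in male replicate 3 were 53 and 36. With TMM, the log2 fold change of mir-75 stood 1.38 above the median of the tested miRNAs. A miRNA at the median thus also has a lower ratio to mir-75 in male gonads. The share of tested miRNAs whose ratio to mir-75 was apart between the sexes was not computed.

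**Figure D3:**
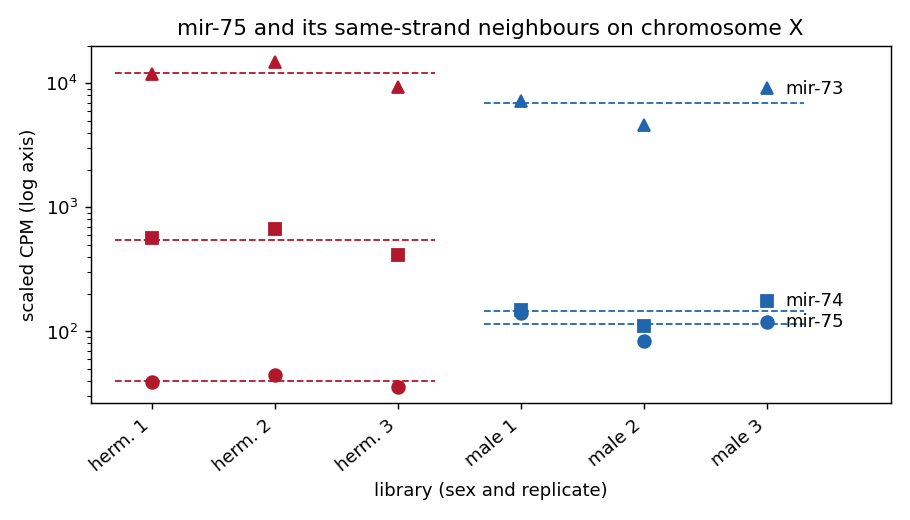
Scaled CPM (log axis) of mir-73 (triangles), mir-74 (squares) and mir-75 (circles), miRNA genes on one strand of chromosome X, in hermaphrodite (red) and male (blue) gonad libraries; dashed lines are group means. The gap between mir-74 and mir-75 is wide in hermaphrodite libraries, with 11.7 to 14.9 counts of mir-74 per count of mir-75, and nearly closed in male libraries, with 1.05 to 1.47.

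The profiles of the members over the 6 libraries differed mainly through male replicate 3. Likeness was measured as the root mean square distance between log2 scaled CPM profiles, each centred on its own mean, where a small value is a close match. The distance between mir-75 and mir-79 was 1.07, close to the median distance of each to the tested miRNAs, 1.14 for mir-75 and 1.19 for mir-79. By this measure mir-79 was the 60th of 123 miRNAs in likeness to mir-75, and mir-75 the 51st in likeness to mir-79. Without male replicate 3, and with the profiles centred again, the distance was 0.35, mir-79 was the 15th in likeness to mir-75 and mir-75 the 10th in likeness to mir-79. Leaving out any one of the other 5 libraries gave a distance of 1.09 to 1.17.

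The closest profiles to mir-75 were those of mir-248 at a distance of 0.26, mir-34 at 0.29 and lin-4 at 0.30. As they were picked for a profile like that of mir-75, which was higher in all male libraries, their direction follows from the choice. Their calls in male gonads are given as a description, with log2 fold changes of 1.14 (SE 0.41) for mir-248, 1.02 (SE 0.40) for mir-34 and 1.30 (SE 0.42) for lin-4. The edgeR F-test gave them adjusted p-values of 0.013, 0.0227 and 0.00465, in that order. The heterochronic miRNA lin-4 times larval development through lin-14, and mir-34 is the worm member of a conserved family with roles in stress responses. In male replicates 1 to 3, lin-4 stood at 696, 652 and 1142 scaled CPM, against 302 to 387 scaled CPM in hermaphrodite libraries.

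The closest profiles to mir-79 were those of mir-60 at a distance of 0.33, mir-355 at 0.40 and mir-794 at 0.45. They were picked over the same libraries, so the low value in male replicate 3 that they share with mir-79 is part of the choice, and without that library the 3 closest were mir-790, mir-45 and mir-800. The intestinal miRNA mir-60 stood at 1452 and 943 scaled CPM in male replicates 1 and 2 and at 220 scaled CPM in male replicate 3, against 351 to 540 scaled CPM in hermaphrodite libraries. For mir-355 the male values were 71.6, 57.4 and 16.6 scaled CPM, and for mir-794, a miRNA with the let-7 seed, they were 85.7, 108 and 36.6 scaled CPM. None of these 3 was called between the sexes, with adjusted p-values of 0.0582 for mir-60, 0.84 for mir-355 and 0.87 for mir-794 in the edgeR F-test.

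**Figure D4:**
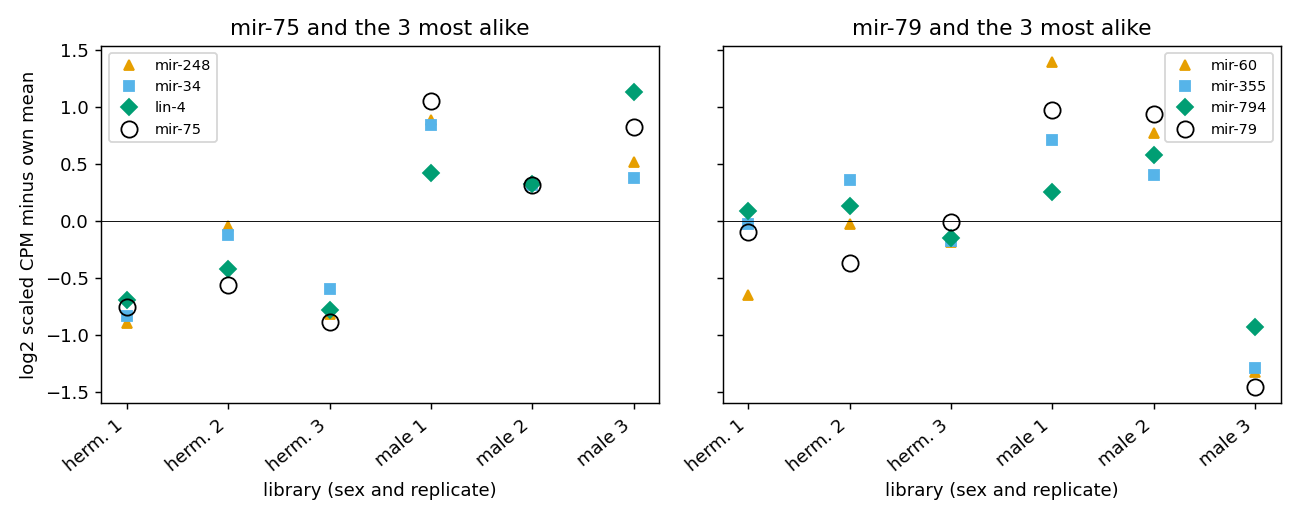
Log2 scaled CPM minus each miRNA's own mean over the 6 libraries for mir-75 (left, open circles) with mir-248, mir-34 and lin-4, and for mir-79 (right, open circles) with mir-60, mir-355 and mir-794. The left set is low in all hermaphrodite and high in all male libraries, and the right set is lowest in male replicate 3.

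Markers of somatic tissue also differed between male libraries. The muscle miRNA mir-1 stood at 1242 and 965 scaled CPM in male replicates 1 and 2 and at 333 scaled CPM in male replicate 3, and was 1359 to 2520 scaled CPM in hermaphrodite libraries. In the reverse direction mir-228, a miRNA of hypodermis and glia, was highest in male replicate 3, at 16047 scaled CPM against 8245 and 8674 in the other male libraries and 3761 to 5201 in hermaphrodite libraries. The sum of mir-241, mir-48, let-7, mir-84 and lin-4, a list for hypodermis and larval soma, was 32966 to 51038 scaled CPM in hermaphrodite and 49141 to 68433 scaled CPM in male libraries. Of these 5, 4 were tested, 1 was called higher in male gonads (lin-4), and mir-84 was at 0 in all libraries. Within that list let-7 was lowest in male replicate 3, at 11047 scaled CPM against 20925 and 14658 in the other male libraries, while mir-48 was highest there, at 55233 scaled CPM against 36357 and 33026. The neuronal miRNAs lsy-6 and mir-124 together ranged from 6.10 to 8.12 scaled CPM in hermaphrodite and 6.66 to 30.8 scaled CPM in male libraries, with mir-124 at 0 to 6 counts. In the edgeR F-test mir-1 was called lower in male gonads (log2 fold change -1.16, adjusted p 0.0121). Called higher were mir-228 (1.22, adjusted p 0.00458) and lsy-6 (1.50, adjusted p 0.0262, on 2 to 20 counts), while the intestinal mir-60 was not called. The part of these tissues in the values of mir-75 and mir-79 was not tested.

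**Figure D5:**
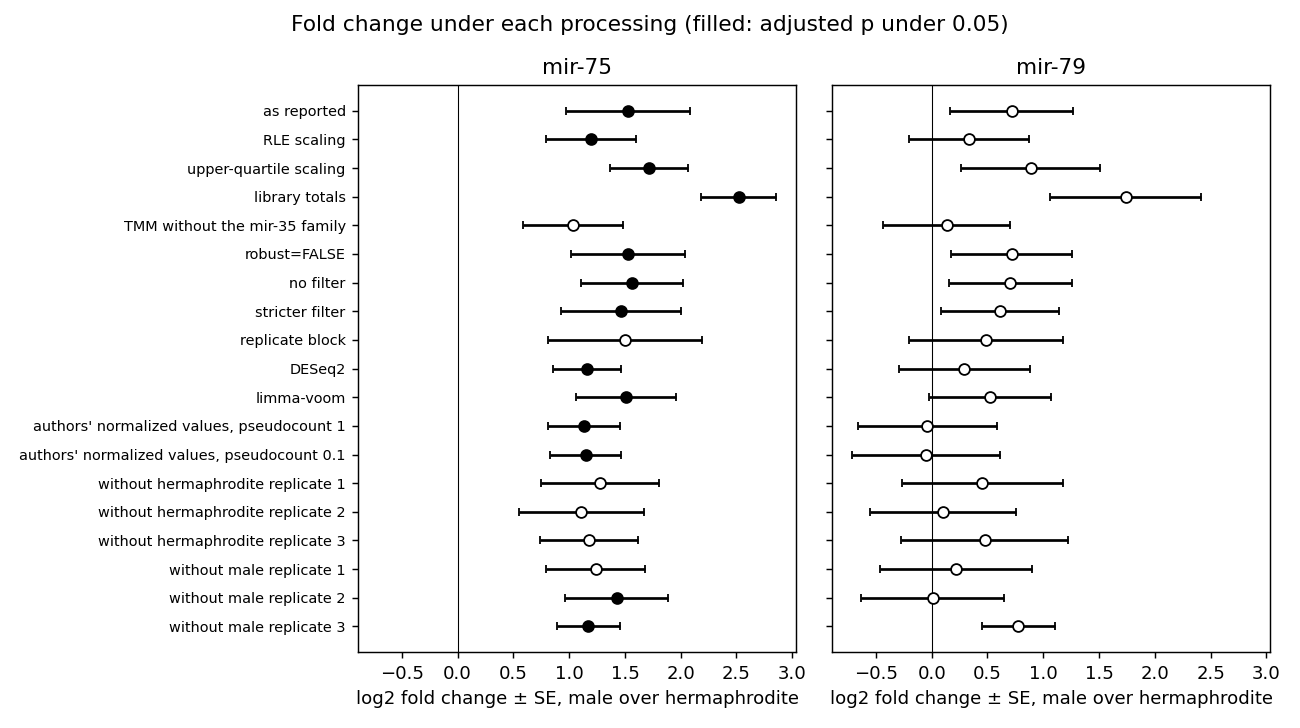
Log2 fold change (male over hermaphrodite, bars ± SE) of mir-75 (left) and mir-79 (right) as reported and under 18 other processing choices; filled points have an adjusted p under 0.05. The value of mir-75 stays above 0 throughout, from 1.03 to 2.52 in the alternatives, and passes the threshold in 12 of them, whereas mir-79 ranges from -0.047 to 1.74 and passes in none.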

How the data were processed

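Small RNA libraries were made from total RNA with the TruSeq Small RNA kit, per the labels' protocols. The authors deposited whole-number counts for 253 miRNA genes per library, and a table of normalized values, used here as a signal. Bowtie2, HTSeq and DESeq2 are named per the submitters' processing notes. The build ce10 and miRBase 22 appear only in file and column names, and how reads matching more than one miRNA were counted is not given in the sources used here. The deposited normalized signal equalled counts divided by median-of-ratios size factors (0.317 to 1.74).

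Counts were analysed with edgeR 4.0.16 in R 4.3.3: filterByExpr (minimum count 10; 124 kept, 129 left out), TMM (factors 0.56 to 1.62), robust estimateDisp and glmQLFit, glmQLFTest by sex, Benjamini-Hochberg at 0.05, all two-sided. Each SE was derived from the fold change and its F statistic. Profiles used log2 CPM with a prior count of 2, and ratios log2 counts plus 0.5. Exact permutation used scipy 1.17.1. Same-sex libraries differed beyond sampling noise. The chi-square was 2683 between male replicates 1 and 2, and 91064 and 79989 between each of these and male replicate 3. It was 18982 to 20061 between hermaphrodite libraries, which are deeper. The fit was tested on simulated data. Alternatives also used DESeq2 1.42.0 and limma 3.58.1.

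Both miRNAs, the lists and the rules were chosen with earlier results of these data known. Besides the pair, the miRNAs named were same-strand miRNA genes within 10 kb, the 3 closest profiles of each member, and listed tissue markers. Gene positions come from WBcel235, Ensembl release 115, which differs from ce10, so no coordinate is given. miRNA sequences were not analysed here, and the shared seed is taken as background. Intervals and limits cover counting error only.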

Additional observations from a re-analysis of the deposited data

How the results depend on the processing

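Over 18 alternatives mir-75 kept its direction and lost its call in 6. Its log2 fold change was 1.03 with TMM computed without the mir-35 family (adjusted p 0.0708) and 1.50 with the replicate number as a block (0.0605). With each library left out in turn it was 1.11 to 1.43, with the call lost in 4 of 6 cases. For mir-79 the log2 fold change was never called, ranged from 0.0095 to 0.78 with a library left out, was 0.49 with the replicate block, and was reversed with limma on the authors' normalized values, at -0.037 (pseudocount 1) and -0.047 (pseudocount 0.1). Same-numbered libraries did not deviate together (r = -0.12, -0.05 and -0.27, and 0 of 6 libraries correlated best with their own number), so the numbers are not taken to pair them. With a sign-flip over same-numbered libraries as the replicate block, the mean differences in the ratios and shares are the same by construction, and the smallest p possible is 0.25. The log2 ratio of mir-75 to mir-79 stayed higher in male libraries in all 10 alternatives, from 0.31 to 1.76. The ratios of mir-73 and mir-74 to mir-75 kept their direction in every alternative run, all of which were chosen after seeing the data. The number of miRNAs called higher in male gonads was 38, and 69 with library totals, 24 without hermaphrodite replicate 2 and 23 without hermaphrodite replicate 3; the number higher in hermaphrodite gonads was 31, and 20 with library totals. The cause of these changes was not tested. The distance between the profiles of mir-75 and mir-79 moved from 1.07 to 0.35 without male replicate 3, an alternative added after seeing the data. The mir-79 value of that library rests on 5 counts. Over the miRNAs as a set, male replicate 3 also differed from male replicates 1 and 2 more than these did from each other (chi-square 91064 and 79989 against 2683).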
